A study of Mus musculus with 6 samples.

Results

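Polycomb core genes were followed in 6 bulk RNA-seq libraries of mouse hematopoietic stem and progenitor cells with and without ING4. The 10 genes were taken as a written list and not by a cutoff on measured values, but earlier results of these data were known. They were Ezh1, Ezh2, Eed and Suz12 of Polycomb repressive complex 2 (PRC2), Bmi1, Ring1 and Rnf2 of Polycomb repressive complex 1 (PRC1), and the chromobox genes Cbx2, Cbx7 and Cbx8. All 10 were found among the 49315 genes of the count files. The populations were LT-HSCs, ST-HSCs and MPPs, taken by cell sorting from the bone marrow of WT mice and of ING4-/- mice, which lack the chromatin reader ING4. Each genotype was 1 pool of 8 to 10 mice, 1000 to 10000 cells were sorted for a library, and each population was sequenced once per genotype. Stem cells that rebuild blood for the long term are LT-HSCs, those that do so for a shorter time are ST-HSCs, and MPPs are multipotent progenitors derived from them. The WT controls were C57BL/6 mice, and no agent was given to any group in the labels. The labels give no age for the animals sorted, while the study's methods give an age range for control mice. All 3 libraries of a genotype thus come from 1 pool.

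PRC2 places methyl groups on lysine 27 of histone H3, a mark of silenced genes. EZH2 or its paralogue EZH1 carries the catalytic domain, and EED and SUZ12 are required for activity and for holding the complex together. In canonical PRC1 a chromobox protein binds this mark, while RING1 or RNF2, partnered by a PCGF protein such as BMI1, attaches ubiquitin to histone H2A. In blood, Bmi1 is known for its need in stem cell self-renewal, Cbx7 for favouring self-renewal over differentiation, and Ezh1 and Ezh2 for differing between resting and dividing cells.

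Eed and Suz12 were the members whose genotype difference passed the test, in opposite directions, and the bases upstream of both genes are shown so that the promoters of these partner subunits can be compared. A RefSeq promoter was matched for 9 of the 10 members, all but Cbx2. The sequences are the 250 bases before the RefSeq start on GRCm38.p6, written 5′ to 3′ on the strand of the gene. The Eed window lies on the minus strand at chr7:89980977-89981226 and the Suz12 window on the plus strand at chr11:79992856-79993105. Capitals mark matches, on either strand, to 4 motifs searched: the E2F motif TTTNNCGC, the E-box CACGTG, the CCAAT box and the GC box GGGCGG.
Eed: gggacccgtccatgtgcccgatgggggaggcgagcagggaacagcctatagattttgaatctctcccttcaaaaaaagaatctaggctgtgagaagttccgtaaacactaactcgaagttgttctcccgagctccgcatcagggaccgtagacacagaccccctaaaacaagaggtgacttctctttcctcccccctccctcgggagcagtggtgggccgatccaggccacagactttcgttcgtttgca
Suz12: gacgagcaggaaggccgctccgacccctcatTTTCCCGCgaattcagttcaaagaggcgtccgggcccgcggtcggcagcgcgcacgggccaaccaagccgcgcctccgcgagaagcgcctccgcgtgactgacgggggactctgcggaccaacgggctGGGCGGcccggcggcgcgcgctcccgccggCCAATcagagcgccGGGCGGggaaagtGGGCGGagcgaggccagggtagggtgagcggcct
The Suz12 window held 37 CpG dinucleotides at 73.6% GC, against a median of 6 CpGs and 52% GC over 27025 promoters of this length. Counting -1 as the base before the start, it had an E2F match at -219, a CCAAT box at -61 and GC boxes at -91, -47 and -34. The E2F motif was found in 4.389% of all promoters, the CCAAT box in 34.46%, the GC box in 32.94% and the E-box in 6.046%. The Eed window held 12 CpGs at 54.4% GC and had no match to these letters. A match is a stretch of letters and was not tested as a binding site.

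Total counts were 7839326 to 9363442 in the WT libraries and 35596876 to 39192588 in the ING4-/- libraries. In the order LT-HSC, ST-HSC, MPP, Ing4 itself had 247, 162 and 247 counts in WT and 0, 24 and 76 in ING4-/- (log2 fold change -4.49, SE 1.56, adjusted p = 0.0373 by edgeR, and -5.45, adjusted p = 0.0783, with population as a block). The reads were counted per gene, 34.87% of the exonic length of Ing4 is shared with Gm44597 on the same strand, and the deleted exons were not analysed here. Of the sort markers, Kit, Ly6a (Sca1), Cd34 and Slamf1 (CD150) had counts in all libraries, and Cd48, whose protein the gates exclude, had 0 counts in ING4-/- LT-HSCs and 50 to 4300 elsewhere. Ly6a was called higher in ING4-/- (log2 fold change 2.14, SE 0.641, adjusted p = 0.0205), but not among genes with at least 10 counts everywhere (1.66, adjusted p = 0.0698), with GC-matched background subtracted (1.60, adjusted p = 0.0757) or without any 1 of the WT libraries (1.93 to 2.26). In marker lists of other blood cells, 4 of 7 erythroid genes were called higher and 1 lower, 1 of 9 granulocyte and monocyte genes higher and 1 lower, and 4 of 7 T and NK cell genes lower, while over all genes tested 7.98% were called higher and 56.7% lower. With population as a block 3 erythroid, 2 granulocyte and monocyte and 1 T and NK cell genes were higher. Summed CPM of the erythroid list was 18.9 to 31.9 in WT and 88.3 to 184 in ING4-/-, that of the granulocyte and monocyte list 40.2 to 196 and 73.7 to 321, and that of the T and NK cell list 56.2 to 136 and 26.9 to 280. Cd3e and Cd3g had 0 counts in all ING4-/- libraries. In LT-HSCs, ST-HSCs and MPPs, Nkg7 had 78, 451 and 926 counts in WT and 842, 8442 and 7728 in ING4-/-. Cd4 had 21, 32 and 90 in WT and 0, 421 and 377 in ING4-/-. Of the B cell list 1 of 6 genes was called higher (Cd79b) and 3 lower, with Cd79a and Ms4a1 at 0 in all ING4-/- libraries. In the study's methods the marrow was depleted of lineage-positive cells before sorting. The part of these other blood cells in the differences described here was not tested.

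The WT libraries held reads on genes that blood does not use. Olfactory and vomeronasal receptor genes (1702 genes) had 18.3 to 23.0 counts per kb of exon in WT and at most 0.0811 in ING4-/-. Scaled to all exons this density equalled 22.9% to 33.8% of the WT counts, against at most 0.0267% in ING4-/-. The WT background varied with base composition. Among protein-coding genes at 0 counts in the 3 ING4-/- libraries, the WT median was 20.6 to 23.7 counts per kb at 42% to 46% GC and 0.502 to 3.03 at 58% to 62% GC. A background estimate for a gene was therefore made from genes of like GC content, an alternative added after the data were seen. All WT libraries carried it and no ING4-/- library did, so background and genotype cannot be told apart by design.

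Set beside this background, the WT counts of the members differed in how much of them it could fill. For Rnf2 the GC-matched background came to 7.79% to 21.3% of the WT counts, for Ezh1 11.4% to 17.4%, for Ezh2 23.0% to 31.7% and for Eed 25.2% to 35.3%. It was 35.4% to 57.5% for Suz12, 55.2% to 96.8% for Bmi1 and 54.2% to 96.7% for Cbx8. Bmi1 and Cbx8 were close to background in WT ST-HSCs, where 85 and 20 counts stood against 82.3 and 19.3. For Ring1, Cbx2 and Cbx7, at 56.45% to 57.55% GC, it was 10.0% to 30.4%. The receptor-based background, not matched for GC, was larger for these genes. It reached 74.4 against 82 counts for Ring1 and 149 against 133 for Cbx7 in WT ST-HSCs, and 96.5 against 89 for Cbx2 in WT LT-HSCs.

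**Figure D1:**
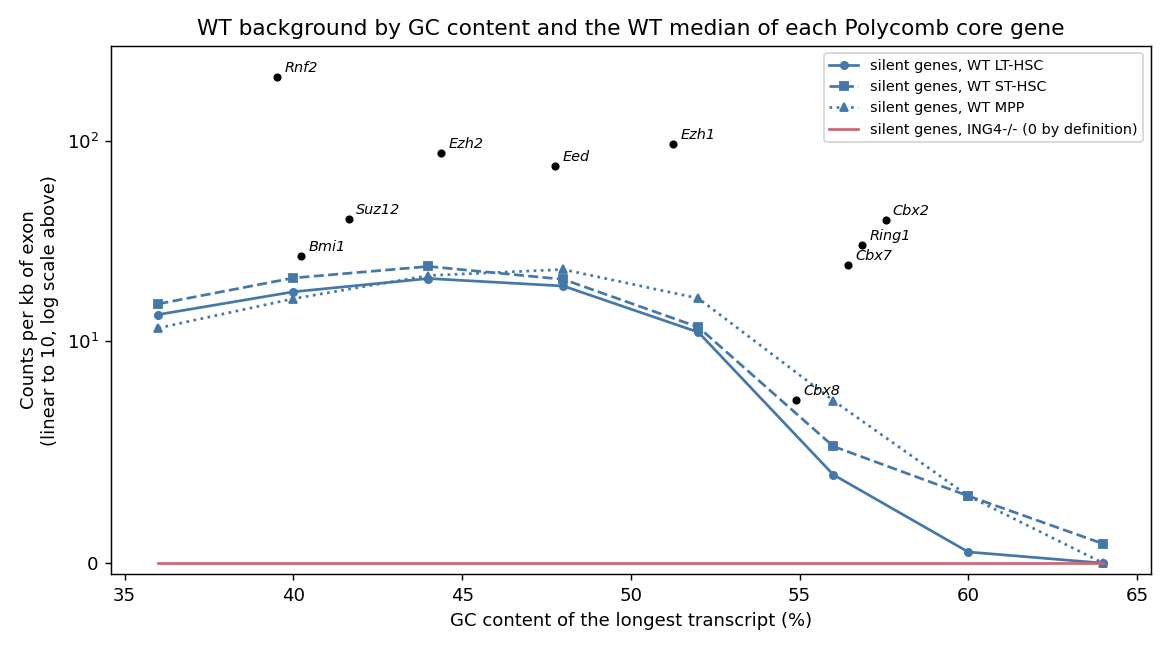
Counts per kb of exon (y axis, linear to 10 and logarithmic above) against GC content of the longest transcript (x axis, percent). Blue lines are the medians of protein-coding genes with 0 counts in all ING4-/- libraries in each WT library, by GC bin, the red line is the same set in ING4-/- (0 by the choice of genes), and black points are the WT medians of the 10 Polycomb core genes. Rnf2 sits far above the background, Bmi1 and Cbx8 close to it.

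All 10 members passed the filter on low counts. Compared across the 31001 genes tested by edgeR, Eed was called higher in ING4-/- and Suz12 lower (called where the adjusted p was below 0.05 and the fold over 1 on the log2 scale). Across all genes 64.6% were called, 7.98% higher and 56.7% lower, so 1 of 10 in each direction is near the background for higher calls and below it for lower calls. The median log2 fold change was 0.46 over the 10 members and -6.85 over all genes tested. When the test was limited to the 9673 genes with 10 or more counts in each library, which leaves out genes seen in WT alone, 18% were called, 8.3% were called higher and 9.68% lower, with a median of 0.02. In that fit Suz12 and Cbx7 were called lower and no member higher. With population as a block 60.9% of genes were called (6.45% higher and 54.4% lower), among them Eed alone of the members, and with GC-matched background subtracted 47.3% were called (5.25% higher and 42.1% lower), again with Eed alone. Each group of 3 libraries is 3 populations from 1 pool of mice, so these p-values measure the spread between populations and not between animals. In bulk samples, fewer cells of a type and less RNA per cell cannot be told apart.

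Eed, the subunit that binds the methylated histone tail and stimulates the enzyme, was higher in ING4-/- in all 3 populations. Its TMM-normalized CPM was 30.0, 23.5 and 31.5 in LT-HSCs, ST-HSCs and MPPs of WT mice and 100.1, 49.0 and 72.5 in the ING4-/- populations. The groups did not overlap, with means of 28.3 ± 4.27 and 73.9 ± 25.5 (SD, n = 3). The log2 fold change was 1.37 (SE 0.356, adjusted p = 0.0110), 1.32 with population as a block (adjusted p = 0.0369) and 1.22 with GC-matched background subtracted (adjusted p = 0.0375). The call ended with receptor-based background subtracted (1.08, adjusted p = 0.0733), among protein-coding genes (1.03, adjusted p = 0.0522) and among genes with at least 10 counts everywhere (0.87, adjusted p = 0.139). Over the 18 alternatives it ran from 0.85 to 1.96 with a call in 12. Leaving out WT ST-HSCs, its lowest library, also ended the call (1.22, adjusted p = 0.0608). The gene lies on chromosome 7 from 89954654 to 89980983 (GRCm38, minus strand), and 6.818% of its exonic length faces E230029C05Rik on the other strand.

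Suz12, the scaffold subunit of PRC2, was lower in ING4-/- in all 3 populations. CPM was 21.1, 18.9 and 22.1 in the WT populations and 9.45, 3.32 and 5.72 in ING4-/- LT-HSCs, ST-HSCs and MPPs. The groups did not overlap (20.7 ± 1.63 against 6.16 ± 3.09, SD, n = 3), and the ST-HSC pair stood furthest apart. The log2 fold change was -1.76 (SE 0.574, adjusted p = 0.0288). The call was lost with population as a block (-1.89, adjusted p = 0.136) and with GC-matched background subtracted (-1.53, adjusted p = 0.123). It was also lost on leaving out any 1 library other than ING4-/- LT-HSCs (-1.84 to -1.44, adjusted p = 0.0522 to 0.0968). Over the 18 alternatives the value stayed between -2.26 and -1.17, with a call in 7. Suz12 lies on chromosome 11 from 79993106 to 80034123 (plus strand), and 3.6% of its exonic length faces Gm26563.

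The catalytic paralogues varied mostly between populations of the ING4-/- marrow. Ezh1, the form known from resting cells, had a CPM of 75.4, 53.5 and 89.9 in WT and of 166.1, 89.4 and 23.4 in ING4-/- LT-HSCs, ST-HSCs and MPPs. ING4-/- LT-HSCs were the highest library and ING4-/- MPPs the lowest, so the ING4-/- values enclosed all WT values. Ezh2, the form known from dividing cells, had 45.4, 73.0 and 56.3 in WT and 43.2, 94.0 and 101.8 in ING4-/-. Neither passed the test between genotypes (Ezh1 log2 fold change 0.34, SE 0.636, adjusted p = 0.674, and Ezh2 0.44, SE 0.391, adjusted p = 0.367). Both values turned sign in other fits, to -0.14 for Ezh1 and -0.082 for Ezh2 among genes with at least 10 counts everywhere. With upper-quartile scaling Ezh2 was called higher (1.03, adjusted p = 0.0465) and Ezh1 was not (0.94, adjusted p = 0.235). Cycling markers also differed between libraries: their summed CPM over 8 genes, of which Pcna and Cdk1 were called higher and Mki67 lower, was 591, 1288 and 995 in WT and 719, 2691 and 1871 in ING4-/- LT-HSCs, ST-HSCs and MPPs. The Pcna and Cdk1 calls were lost among genes with at least 10 counts everywhere (0.89 and 1.07) and with GC-matched background subtracted (0.81 and 1.12), where Mki67 was still called (-4.91 and -4.64). The part of cycling in the Ezh1 and Ezh2 values was not tested.

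**Figure D2:**
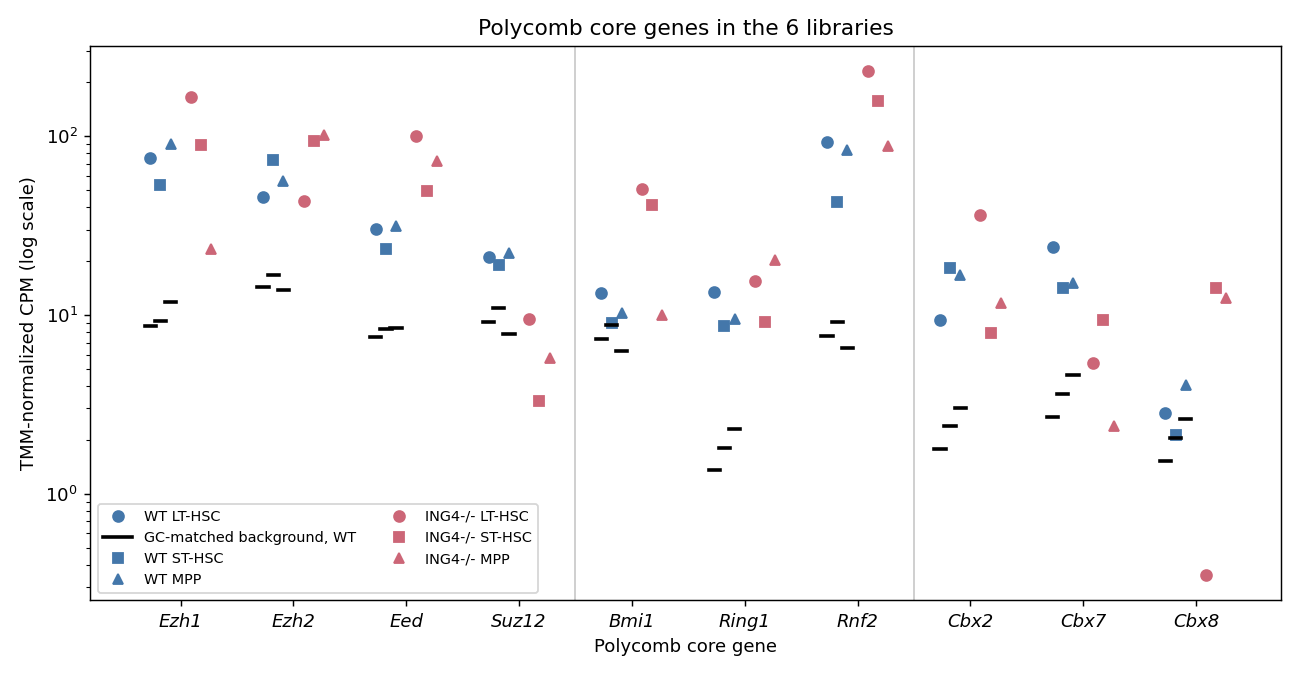
TMM-normalized CPM (y axis, logarithmic) of the 10 Polycomb core genes (x axis) in each of the 6 libraries, 1 symbol per library, WT in blue and ING4-/- in red. Black dashes are the GC-matched background of each WT library. The 3 groups of genes are PRC2, PRC1 and chromobox genes, and Eed, Suz12 and Cbx7 are the ones whose genotypes do not overlap.

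In the PRC1 core, Bmi1 and Rnf2 had their highest CPM in ING4-/- LT-HSCs and ST-HSCs and lay near WT in MPPs, and none of the 3 genes passed the test. Bmi1 CPM was 13.3, 9.04 and 10.3 in the WT populations and 50.5, 41.1 and 10.0 in ING4-/- LT-HSCs, ST-HSCs and MPPs. The MPP value fell inside the WT range and the other 2 far above it (log2 fold change 1.63, SE 0.661, adjusted p = 0.0647). Without ING4-/- MPPs the value was 2.08 (adjusted p = 0.00624), and without any other library it was 1.25 to 1.77 and not called. Upper-quartile scaling gave 2.23, a call (adjusted p = 0.0196). Much of the WT count of Bmi1 could be background, as given above, and with GC-matched background subtracted the value was 2.69 (SE 1.11, adjusted p = 0.0857).

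Rnf2, which encodes the main ubiquitin ligase of PRC1 in most cells, had a CPM of 92.7, 42.6 and 83.8 in WT and of 230.6, 156.1 and 87.8 in ING4-/-. Only the ING4-/- MPP library came within the WT range (log2 fold change 1.10, SE 0.438, adjusted p = 0.0601). Without that library it was 1.41 (adjusted p = 0.0188), without ING4-/- LT-HSCs 0.75 (adjusted p = 0.140). With background subtracted it was 0.64 (GC-matched, adjusted p = 0.301) and 0.50 (receptor-based, adjusted p = 0.435). Upper-quartile scaling gave 1.70, a call (adjusted p = 0.0109). Ring1, the other ligase, had 13.5, 8.72 and 9.50 in WT and 15.5, 9.07 and 20.3 in ING4-/-, and the groups overlapped (0.49, SE 0.543, adjusted p = 0.470, and -0.030 among genes with at least 10 counts everywhere).

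The 3 chromobox genes each showed a different order. Cbx7, the reader most tied to stem cell self-renewal, had a lower CPM in every ING4-/- population, at 24.1, 14.1 and 15.1 in WT and 5.40, 9.42 and 2.39 in ING4-/-. The groups did not overlap (17.8 ± 5.47 against 5.73 ± 3.53, SD, n = 3). It did not pass the test (log2 fold change -1.64, SE 0.672, adjusted p = 0.0658), but passed among genes with at least 10 counts everywhere (-2.16, adjusted p = 0.0406) and without ING4-/- ST-HSCs (-2.18, adjusted p = 0.0275). It also passed with DESeq2 size factors (-2.02, adjusted p = 0.0366), and did not with population as a block (-1.83, adjusted p = 0.199). With GC-matched background subtracted it was -1.95 (adjusted p = 0.0746), at median levels of 4.39 TPM in WT and 1.47 in ING4-/-. With receptor-based background, which is not matched to the GC content of Cbx7, it was -0.34 (adjusted p = 0.887), at medians of 1.51 and 1.46 TPM.

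Cbx2 was highest in ING4-/- LT-HSCs, with a CPM of 36.1 against 9.31 in WT LT-HSCs, while ST-HSCs and MPPs had 18.2 and 16.7 in WT and 7.97 and 11.7 in ING4-/-. The pooled difference was 0.32 (SE 0.700, adjusted p = 0.718) and turned to -0.065 with GC-matched background subtracted. Cbx8, a reader known for rising with differentiation, ran the other way, from 0.351 in ING4-/- LT-HSCs (11 counts) to 14.2 in ST-HSCs (448 counts) and 12.4 in MPPs (420 counts). Its WT CPM was 2.82, 2.13 and 4.07, from 27, 20 and 42 counts (log2 fold change 1.56, SE 1.15, adjusted p = 0.275, and 2.15, adjusted p = 0.00999, without ING4-/- LT-HSCs, but 1.09 to 1.68 and not called without any other library). Cbx2 and Cbx8 are neighbours on chromosome 11, with 5034 bases between them, from 119022962 to 119031270 on the plus strand and from 119036305 to 119040969 on the minus strand. Of the 10 members, Eed (ING4-/- above WT), Suz12 and Cbx7 (both below) had groups that did not overlap, which is 3 of 10. Of the 9673 genes with at least 10 counts everywhere 49.2% did not overlap either. ING4-/- lay above all WT values for 3512 of these genes and below them for 1246, so on this CPM scale the direction of Eed was the more common.

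Within a population there was 1 library per genotype, so the log2 ratios of ING4-/- over WT have no test. For Eed they were 1.73, 1.06 and 1.20 in LT-HSCs, ST-HSCs and MPPs, and for Suz12 -1.15, -2.48 and -1.93. Cbx7 was at -2.14, -0.58 and -2.62. These were the members with 1 sign in all populations beside Ring1 (0.20, 0.06 and 1.09) and Rnf2 (1.31, 1.87 and 0.07). Ezh1 went from 1.14 and 0.74 in the stem cells to -1.94 in MPPs. Bmi1 went from 1.92 and 2.17 to -0.04.

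**Figure D3:**
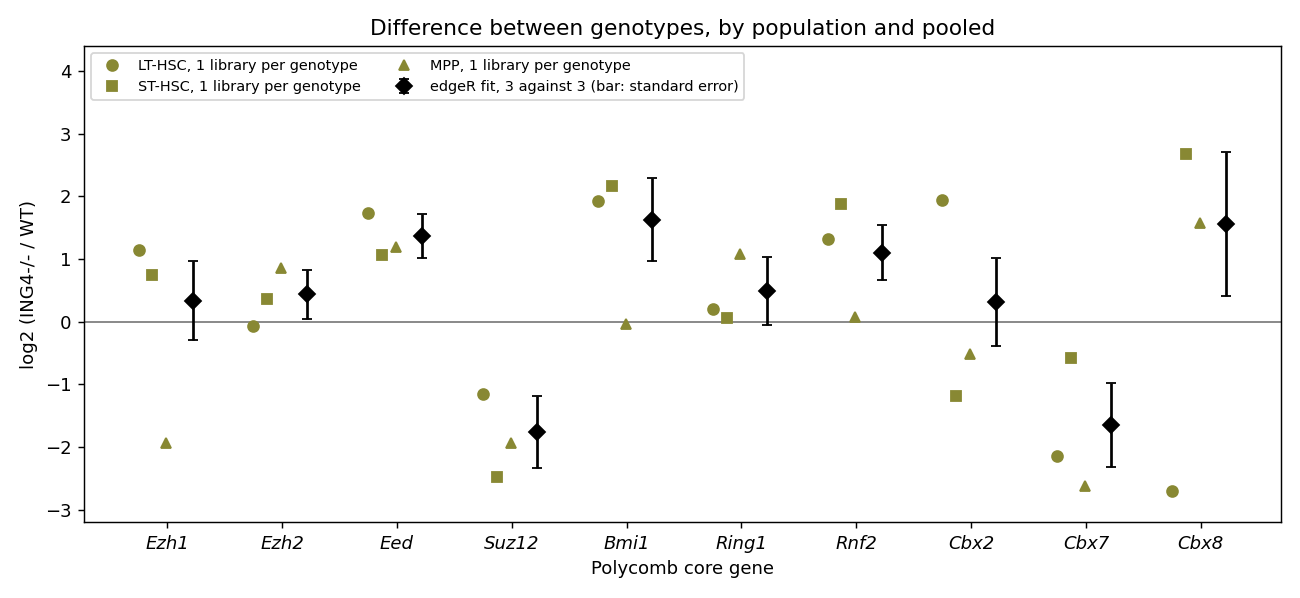
Log2 ratio of ING4-/- over WT (y axis) for each Polycomb core gene (x axis). Green symbols are single-library ratios in LT-HSCs, ST-HSCs and MPPs, and black diamonds are the edgeR log2 fold changes of 3 against 3 libraries with standard error bars. Eed lies above 0 and Suz12 and Cbx7 below 0 in all 3 populations, while Ezh1, Cbx2 and Cbx8 have ratios on both sides.

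All 10 members varied more across the 3 ING4-/- libraries than across the 3 WT libraries, by the SD of log2 CPM. The same held for 70.2% of the genes with at least 10 counts everywhere, with a median SD of 0.32 in WT and 0.54 in ING4-/-. Suz12 varied least in WT (highest over lowest CPM 1.17-fold, against 2.85-fold in ING4-/-), Ezh1 1.68-fold against 7.09-fold and Bmi1 1.47-fold against 5.04-fold. Cbx8 ranged 1.92-fold in WT and 40.3-fold in ING4-/-. These are descriptions of 3 single libraries each, and WT libraries also had the background and the lower depth given above. The part of both was not tested.

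Levels between genes were compared per kb of exon, as TPM after the receptor-based background was subtracted. Rnf2 had the highest median in both genotypes, at 50.4 TPM in WT (21.3 to 64.0) and 63.0 in ING4-/- (34.7 to 98.7). In WT it was followed by Ezh1 (24.8, range 12.8 to 28.1), Ezh2 (18.2, range 14.1 to 22.9) and Eed (17.4, range 9.96 to 17.6), whose ranges overlapped. In ING4-/- Eed came second (30.9, range 21.3 to 46.2), with Ezh2 (23.4, range 11.4 to 24.9), Ezh1 (range 5.14 to 39.4) and Bmi1 (17.2, range 4.11 to 22.5) next and overlapping. Suz12 stood at 6.07 TPM in WT and 1.89 in ING4-/-, so among PRC2 genes it was the lowest in both. Ring1, Cbx2, Cbx7 and Cbx8 had medians of at most 8.43 TPM in either genotype. Cbx8 was at 0 in all WT libraries on this scale, because the receptor density exceeded its counts, and at 1.02 with GC-matched background.

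Paralogues within 1 library do not depend on library scaling, and their shares of the summed counts moved widely. Ezh1 made up 62.4% (95% exact Clopper-Pearson interval 59.6% to 65.2%), 42.3% and 61.5% of Ezh1 plus Ezh2 counts in LT-HSCs, ST-HSCs and MPPs of WT mice. In ING4-/- the share was 79.3% (78.3% to 80.3%), 48.8% and 18.7% (17.5% to 19.9%) in the same order. Ring1 made up 10.2% to 17.0% of Ring1 plus Rnf2 counts in WT and 5.49% to 18.8% in ING4-/-. The shares are of counts as deposited, with no correction for exonic length or for the WT background given above. The intervals cover counting error only.

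Among the 3 chromobox genes, Cbx7 took 66.5%, 41.0% and 42.2% of the counts in WT and 12.9%, 29.9% and 9.02% in ING4-/- LT-HSCs, ST-HSCs and MPPs. Cbx8 took 7.80%, 6.17% and 11.4% in WT, where GC-matched background could fill 54.2% to 96.7% of its counts. In ING4-/- it took 0.840% in LT-HSCs (11 of 1309 counts), 44.9% in ST-HSCs and 46.8% in MPPs, and Cbx2 filled 86.2% of the ING4-/- LT-HSC counts. Cbx2 and Cbx8 took 44.2% and 46.8% in ING4-/- MPPs, with overlapping intervals.

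**Figure D4:**
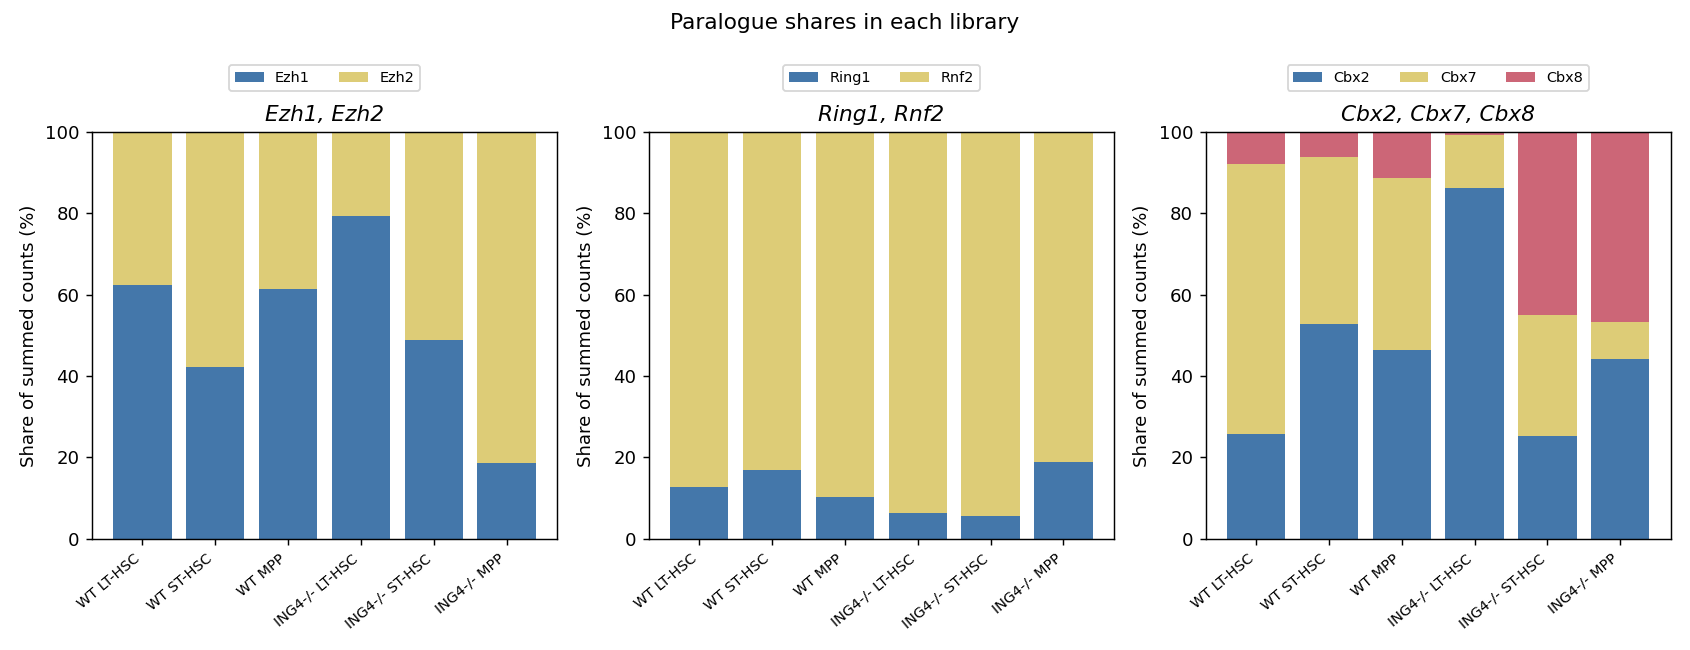
Share of summed counts (y axis, percent) of each paralogue in the 6 libraries (x axis), for Ezh1 and Ezh2, Ring1 and Rnf2, and Cbx2, Cbx7 and Cbx8. Ezh1 runs from 79.3% in ING4-/- LT-HSCs to 18.7% in ING4-/- MPPs, and Cbx8 from 0.840% to 46.8%.

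None of 5 paralogue ratios passed a two-sided exact permutation test between genotypes, and 3 against 3 libraries cannot go below p = 0.1. As differences in mean log2 ratio of background-subtracted counts per kb, ING4-/- minus WT, they were -0.44 for Ezh1/Ezh2 (exact p = 0.8), -2.48 for Cbx7/Cbx8 (exact p = 0.3) and -1.21 for Cbx7/Cbx2 (exact p = 0.8). Of the 12 values behind each, 4 for Cbx7/Cbx8, Cbx8 in all WT libraries among them, and 2 for Cbx7/Cbx2 were at or under the floor of 3 counts, so the floor set these WT ratios in part. With GC-matched background they were -3.67 and -1.78, and from the counts as deposited -2.25 and -1.89. Bmi1 against Pcgf2, its closest PCGF paralogue, gave 2.51 (exact p = 0.1), with 4 of the 12 values at or under 3 counts, but 1.02 (exact p = 0.4) from the counts as deposited and 2.19 (exact p = 0.2) with GC-matched background. Ring1/Rnf2 gave 1.11 (exact p = 0.3) but -0.63 from the counts as deposited and -0.53 with GC-matched background. Adjusted over the 5 ratios all p-values were 0.5 to 0.8.

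Between populations, with genotype as a term, edgeR called no gene of 31001 in any of the 3 contrasts (0% of all genes), and no member. At an unadjusted p under 0.05 there were 561 genes for MPPs against LT-HSCs, 616 for ST-HSCs against LT-HSCs and 187 for MPPs against ST-HSCs. DESeq2 called 208 higher and 227 lower in the first, 121 and 164 in the second and 94 and 74 in the third, with no member among them. The member with the smallest p was Ezh2, higher in ST-HSCs than in LT-HSCs in both genotypes (log2 fold change 0.89, SE 0.384, unadjusted p = 0.0653) and in MPPs than in LT-HSCs (0.78, SE 0.386, unadjusted p = 0.0960). Ezh1 in MPPs against LT-HSCs was -1.07 (SE 0.836, unadjusted p = 0.254), a value set by ING4-/- MPPs, without which it was 0.16. The 3 contrasts share libraries, and on simulated counts the first recovered 1 of 68 2-fold and 40 of 73 4-fold changes.

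The other genes of the Polycomb machinery were read from 5 lists with 56 genes, all tested. In ING4-/- 6 of them passed the test as higher and 8 as lower, with a median log2 fold change of -0.56, against 7.98% higher and 56.7% lower over all genes tested. Among the 8, Auts2 and Asxl3 passed the filter on low counts through their WT counts. With DESeq2 size factors in edgeR the split was 3 higher and 13 lower, and with upper-quartile scaling 12 and 6. The median over all genes tested moved from -6.85 to -7.17 and -6.35 under these scalings. Among genes with at least 10 counts everywhere 48 of the 56 were tested, of which 2 were higher and 11 lower (8.3% and 9.68% over all genes of that fit). With GC-matched background 3 were higher and 6 lower, Foxk1 among the 3 because the subtraction took all of its WT counts.

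Of 10 PRC2 accessory genes, the histone-binding subunits Rbbp4 (log2 fold change 1.45, SE 0.359, adjusted p = 0.00874) and Rbbp7 (1.13, SE 0.180, adjusted p = 0.00109) were higher. Aebp2, a cofactor that binds SUZ12, was called lower (-1.64, SE 0.598, adjusted p = 0.0446), but not with population as a block (-1.83, adjusted p = 0.0862). With GC-matched background subtracted Rbbp4 was at 0.93 (adjusted p = 0.0645), Rbbp7 at 0.50 (adjusted p = 0.0485, under the fold threshold) and Aebp2 was not called (adjusted p = 0.331). Of 8 other canonical PRC1 genes, the chromobox gene Cbx6 was higher (1.09, SE 0.362, adjusted p = 0.0307) and the polyhomeotic gene Phc3 lower (-2.81, SE 0.860, adjusted p = 0.0223), and neither call held with GC-matched background (0.56 and -1.95).

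Of 16 genes of variant PRC1, 2 were higher and 2 lower. Pcgf1, the PCGF subunit of the KDM2B-bound complex, rose from 26, 17 and 44 counts in WT to 1566, 433 and 1156 in ING4-/- LT-HSCs, ST-HSCs and MPPs (log2 fold change 3.46, SE 0.701, adjusted p = 0.00321, and 4.66 with GC-matched background, adjusted p = 0.0255). E2f6, of the PCGF6 complex, was higher (1.18, SE 0.331, adjusted p = 0.0153) but not with GC-matched background (0.74, adjusted p = 0.121). Its partner Mga was lower (-1.68, SE 0.297, adjusted p = 0.00166, and -1.92 with GC-matched background, adjusted p = 0.00180). Auts2, named outside the rule, was called lower too (-4.79), with 392 to 456 counts in WT and 1, 32 and 129 in ING4-/-. It passed the filter on low counts through its WT counts.

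Of 11 genes of the PR-DUB, the complex that removes the H2A ubiquitin, none was called higher and Mbd5 (-3.83, SE 0.947, adjusted p = 0.00859) and Asxl3 (-6.08, named outside the rule, with 1, 61 and 0 counts in ING4-/-) were lower. Asxl3, at 417, 558 and 307 counts in WT, passed the filter on low counts through WT, so its lower call is no result. With GC-matched background neither Mbd5 (-2.04, adjusted p = 0.436) nor Asxl3 was called, while Hcfc1 (-1.32) and Ogt (-1.10) were called lower. Foxk1 was called higher there, at 7, 22 and 27 counts in WT before subtraction and 41, 170 and 43 in ING4-/-, but was at 0.46 without subtraction (adjusted p = 0.644). The subtraction took all WT counts of Foxk1, which fixed its higher call, so that call is no result. These 3 genes were also chosen outside the rule. Among 11 H3K27 demethylase and trithorax genes, which oppose Polycomb, Dpy30 was higher (2.08, SE 0.390, adjusted p = 0.00218) and the methyltransferases Kmt2c (-2.79, SE 0.631, adjusted p = 0.00552) and Kmt2a (-1.85, SE 0.366, adjusted p = 0.00284) lower. All 3 of these calls held with GC-matched background subtracted, at 1.48, -2.81 and -1.79 (adjusted p = 0.0154, 0.00785 and 0.0106), and that of Kmt2a was lost with receptor-based background subtracted (-1.16, adjusted p = 0.240).

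Genes that Polycomb keeps silent in blood, such as Pax and Gata lineage factors of other tissues, were read from a list of 20. Their summed counts were 304, 408 and 630 in the WT populations and 23, 3 and 161 in ING4-/-. Of the 20, 11 passed the filter on low counts, and through their WT counts, so that a lower call in ING4-/- was fixed by the filter and is no result (56.7% of all genes were called lower). Their WT density was 3.54, 4.75 and 7.34 counts per kb at a median of 56.28% GC, beside a GC-matched background of 3.98, 5.26 and 7.32 counts per kb at 54% to 58% GC. With that background subtracted 1 gene of the list was left to test, Pax2, with 6 to 12 counts in WT before subtraction.

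Of 11 Polycomb targets studied in HSCs, 9 were tested. Cdkn1c, which encodes the cell-cycle inhibitor p57, was higher, with 47, 28 and 31 counts in WT and 1295, 1361 and 638 in ING4-/- (log2 fold change 3.23, SE 0.576, adjusted p = 0.00174, and 2.79 with GC-matched background, adjusted p = 0.00949). Ebf1, Pax5 and Igf2bp3 had 35 to 260 counts in the WT libraries and at most 2 in any ING4-/- library. They too passed the filter through WT, which fixed their lower calls, and none was left to test with GC-matched background subtracted. Igf2bp2, with 95, 64 and 163 counts in WT and 409, 308 and 361 in ING4-/-, was at 0.024 as deposited (adjusted p = 0.974). With GC-matched background subtracted it was called higher, but the subtraction took all of its WT counts, which fixed that call, so it is no result.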

How the data were processed

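RNA was sequenced from LT-HSCs, ST-HSCs and MPPs of WT and ING4-/- mice, 1 library each. The deposited values are raw read counts for 49315 genes in each library, which the authors gave with positions and exonic lengths and did not normalize. The build named in the submitters' processing notes was mm10. The aligner, counting program and strand setting are not given in the sources used here. Symbols, positions and GC content came from GENCODE for GRCm38, which held 49056 of the identifiers and lacked 259, and promoters from RefSeq GRCm38.p6.

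Genotypes were compared, 3 ING4-/- against 3 WT libraries as in the study's methods, in edgeR 4.0.16 (R 4.3.3) by the quasi-likelihood F test after TMM normalization and filterByExpr (grouped by genotype). The p-values were adjusted by Benjamini-Hochberg over all genes tested, and a call needed both a value below 0.05 and a log2 fold change beyond 1 in either direction. SEs were obtained as the size of the log2 fold change over the root of F. Population contrasts had genotype as a term. Log2 ratios used a prior count of 2, and background-subtracted paralogue ratios a floor of 3 counts. Ratios were tested with scipy 1.17.1 by exact permutation. Libraries of a population deviated together from their genotype means (over 9673 genes r was 0.143, 0.110 and 0.121), so population was a block in an alternative. The chi-square per degree of freedom between libraries of a genotype was 14.1 or more, so none was a duplicate. Other alternatives were DESeq2 1.42.0, other scalings, filters and gene sets, removal of a length trend, subtraction of receptor-based background and leaving out each library. GC-matched background and thinning to equal depth were added after the data were seen. The fits were tested on simulated counts with 2-fold (the threshold of a call), 4-fold and 8-fold changes. Between genotypes 8 of 68, 63 of 73 and 59 of 59 were recovered, with 3 false calls. For MPPs against LT-HSCs 1 of 68, 40 of 73 and 56 of 59 were recovered, with 1 false call.

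The floor behind a count of 0 was 3 counts, or 0.383 CPM for the smallest library and 0.0765 for the largest. No molecular identifiers are named in the sources used here, so reads were not taken as independent molecules, and floors and intervals cover counting error only. The genes named were all 10 members, Ing4, the sort markers and, in each other list, up to 3 called genes at each end of the log2 fold changes, given 10 or more counts in each library. Any gene named outside this rule was picked with its values in view. The members and lists were chosen with earlier results of these data known. Flow cytometry and transplantation data were not analysed here.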

Additional observations from a re-analysis of the deposited data

Results flagged for a closer look

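The difference between genotypes changed sign between populations, by at least 1 on the log2 scale on each side, for 3 members. Each ratio rests on 1 library per genotype, so the difference between populations was not tested. The log2 ratio of ING4-/- over WT for Ezh1 was 1.14 in LT-HSCs and -1.94 in MPPs, 3.07 apart. The Cbx2 ratio was 1.94 for LT-HSCs and -1.18 for ST-HSCs, 3.12 apart. The Cbx8 ratios of LT-HSCs, ST-HSCs and MPPs were -2.71, 2.68 and 1.58, so that LT-HSCs minus ST-HSCs was -5.39 and LT-HSCs minus MPPs was -4.29. Cbx8 had 11 counts in ING4-/- LT-HSCs and 20 to 42 in the WT libraries, of which the GC-matched background could fill 54.2% to 96.7%.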

How the results depend on the processing

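Of the 10 core genes, 1 was called higher and 1 lower in ING4-/-. Calls higher were 4 with upper-quartile scaling (Eed, Ezh2, Bmi1 and Rnf2), 3 with no filter, and 0 among genes with at least 10 counts everywhere, protein-coding genes, after receptor-based background subtraction and after that subtraction with population as a block. Calls lower were 2 with DESeq2 size factors, the DESeq2 test, at least 10 counts everywhere, protein-coding genes and thinning, and 0 with upper-quartile scaling, population as a replicate block, either background subtraction, and receptor-based subtraction with the block. With DESeq2 size factors and with at least 10 counts everywhere the 2 were Suz12 and Cbx7. Leaving out 1 library gave 0 to 3 higher and 0 to 1 lower. In the 56 machinery genes, 6 calls higher became 3 (DESeq2 size factors, DESeq2, protein-coding, GC-matched), 12 (upper quartile), 2 (at least 10 counts), 10 (receptor background) and 1 (that with the block). The 8 calls lower became 13 (DESeq2 size factors), 17 (DESeq2), 4 (receptor background) and 2 (that with the block), and were 5 to 11 on leaving out 1 library. In the 31 targets, 1 call higher became 2 (upper quartile, GC-matched) and 0 (receptor background with the block), and 14 lower, all passing the filter through WT counts, became 0 (at least 10 counts, receptor background with the block), 1 (either background) and 7 (thinning). The GC-matched calls higher of Foxk1 and Igf2bp2 in these tallies were fixed by the subtraction, which took all of their WT counts. Signs turned for Ezh1 (-0.14 with at least 10 counts, -0.084 with receptor and -0.078 with GC-matched background, -0.38 with receptor background and the block, -0.36 to 0.82 on leaving out 1 library, the lowest without ING4-/- LT-HSCs), Ezh2 (-0.082 with at least 10 counts, -0.016 with receptor background and the block), Ring1 (-0.030 with at least 10 counts, -0.17 with the length trend removed), Cbx2 (-0.0051 with DESeq2 size factors, -0.012 with protein-coding genes, -0.16 with at least 10 counts, -0.065 GC-matched, -0.093 with the length trend removed, -0.57 to 0.71 on leaving out 1 library, the lowest without ING4-/- LT-HSCs) and Cbx7 (0.14 with receptor background and the block). For MPPs against LT-HSCs, Ezh1 ran from -2.76 to 0.16 on leaving out 1 library, the highest without ING4-/- MPPs. The Ring1/Rnf2 difference turned to -0.63 from deposited counts and -0.53 GC-matched. The Ezh1/Ezh2 difference was 0.80 without MPPs. Why these values moved was not tested. With population as a block, Suz12, Ing4, Aebp2 and Hba-a2 lost their calls, and Cd34, Ccnb1, Mpo and Nkg7, not called without it, were called higher. Cbx8 could not be fitted after receptor-based subtraction. WT depth and background limit Bmi1 and Cbx8, which lie near background there.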
